A study of Mus musculus with 2 samples.

Results

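Genes of ribosome biogenesis and of RNA polymerase I were compared between SoNar-high and SoNar-low leukaemia cells of the mouse. The genes were chosen by a rule on names that holds no measured values, but the set was chosen with earlier results of these data known. The rule took symbols that begin with Nop, Utp, Nol, Rrp, Npm or Gnl and go on with a number. It also took Noc2l, Noc3l, Noc4l, the Polr1 subunits, and Bop1, Ncl, Fbl, Dkc1, Nip7, Pes1 and Wdr12. Among RefSeq's symbols, 59 matched, and 58 of them had a probe on the array, out of 20618 genes with a probe; Nol8 had none. These 58 genes were covered by 71 probes. Of the 58, 53 were measured on both arrays, 4 were detected, that is well above background, in the SoNar-low population alone (Nol3, Nol4l, Nol10 and Utp14b), and Nol4 was detected in neither.

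Ribosomes are made in the nucleolus. RNA polymerase I transcribes the long ribosomal RNA precursor, small nucleolar ribonucleoprotein particles (snoRNPs) guide its chemical modification, and large assemblies of processing factors then cut and fold it into the small and the large ribosomal subunit. Growing cells spend much of their transcription on this pathway, and MYC proteins are known activators of many of its genes. The name rule is not a functional one: Nol3 encodes an inhibitor of apoptosis, and Nol4, Nol4l and the GTPase gene Gnl1 are not established ribosome biogenesis factors.

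SoNar is a fluorescent protein sensor of the NADH/NAD+ balance. Bone marrow cells of B-cell acute lymphoblastic leukaemia, B-ALL for short, with a stated age of 8 weeks were sorted on the sensor's F405/F488 ratio, the signal under violet over that under blue excitation. The populations are labelled SoNar-high and SoNar-low, although the titles of the samples name them N-myc-high and, for the other, N-myc-low. The mouse strain, the genotype of the leukaemia and whether animals were pooled are not given in the sources used here. Total RNA of each population went onto 1 one-colour array, so the 2 arrays allow no test between the populations, and every difference below lacks a replicate check. A difference is the log2 signal of the SoNar-high array minus that of the SoNar-low array, after each array was scaled to its own 75th percentile. Equal raw signals on both arrays correspond to a scaled difference of 0.20, and the threshold for calling a gene was 2-fold (1 on the log2 scale) in either direction, a rule of size. In RNA from sorted cells, fewer cells of a kind and less RNA per cell cannot be told apart.

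The arrays differed in how much they detected: 44.8% of the non-control spots were well above background for SoNar-high cells and 72.9% for SoNar-low cells. Array and population cannot be told apart. B-lineage genes were present on both, with 11 of 14 marker genes well above background on each array, among them Cd79a, Cd79b and Pax5, while Igll1, Rag1 and Rag2 were not well above background on either. Their summed scaled signal was 136 in SoNar-high and 107 in SoNar-low cells. The median difference of the 11 was 0.42, with 8 above 0 and a range from -1.10 to 0.98. Genes of other marrow cells were also detected. The 8 neutrophil markers summed to a scaled signal of 43.5 in SoNar-high and 51.2 in SoNar-low cells, with 7 of 8 differences below 0. The sums were 0.669 and 1.25 for 4 monocyte and macrophage markers, 2.13 and 4.89 for 5 T and NK cell markers and 0.858 and 2.59 for 5 erythroid markers, and each of the 8 measured genes of these lists was lower on the SoNar-high array at this scaling, Adgre1 least (-0.31), less than the shift that median scaling brings. The part of these cells in the differences below was not tested. The T cell gene Cd3d was detected in neither population. Mycn, the gene in the sample titles, was detected in neither population either, on its 1 probe (12.3 units in SoNar-high and 4.70 in SoNar-low cells). A single probe does not show that the gene was not expressed.

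As a set, the ribosome biogenesis genes lay close to the middle of all genes. Their median difference was 0.11, against 0.22 over the 10521 genes measured on both arrays, which puts it at -0.12 relative to the median gene; 20 of the 53 lay above the median gene and 33 below it. No gene of the set reached 2-fold on the higher side (0 of 53), where 2.4% of all genes did. Npm3 and Utp20 were at least 2-fold lower, 2 of 53 or 3.77%, where 4.39% of all genes were. On this lower side the share of the set that was called is thus near that of all genes. At 1.5-fold, 8 of 53 were higher (15.1%, against 20.4% of all genes) and 3 were lower (5.66%, against 10.2%). At 3-fold none was higher (0.295% of all genes) and Npm3 and Utp20 were lower (3.77%, against 1.26% of all genes). The counts of higher genes moved with the scaling. Median scaling added 0.57 to every gene and gave 11 of 53 higher (20.8%, against 32.1% of all genes) and 2 lower (3.77%, against 1.33%). It put 96.0% of the called genes of the whole array on the higher side, in place of 35.4%. That side held 6.67% under scaling to the probes well above background on both arrays and 8.62% with the median gene set to 0; Utp18 then joined Npm3 and Utp20 as lower under both. It held 47.0% under quantile normalization, 18.2% under loess on the level, 23.0% under normexp, 56.0% with the stricter filter on dim probes and 54.5% in the series matrix.

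**Figure D1:**
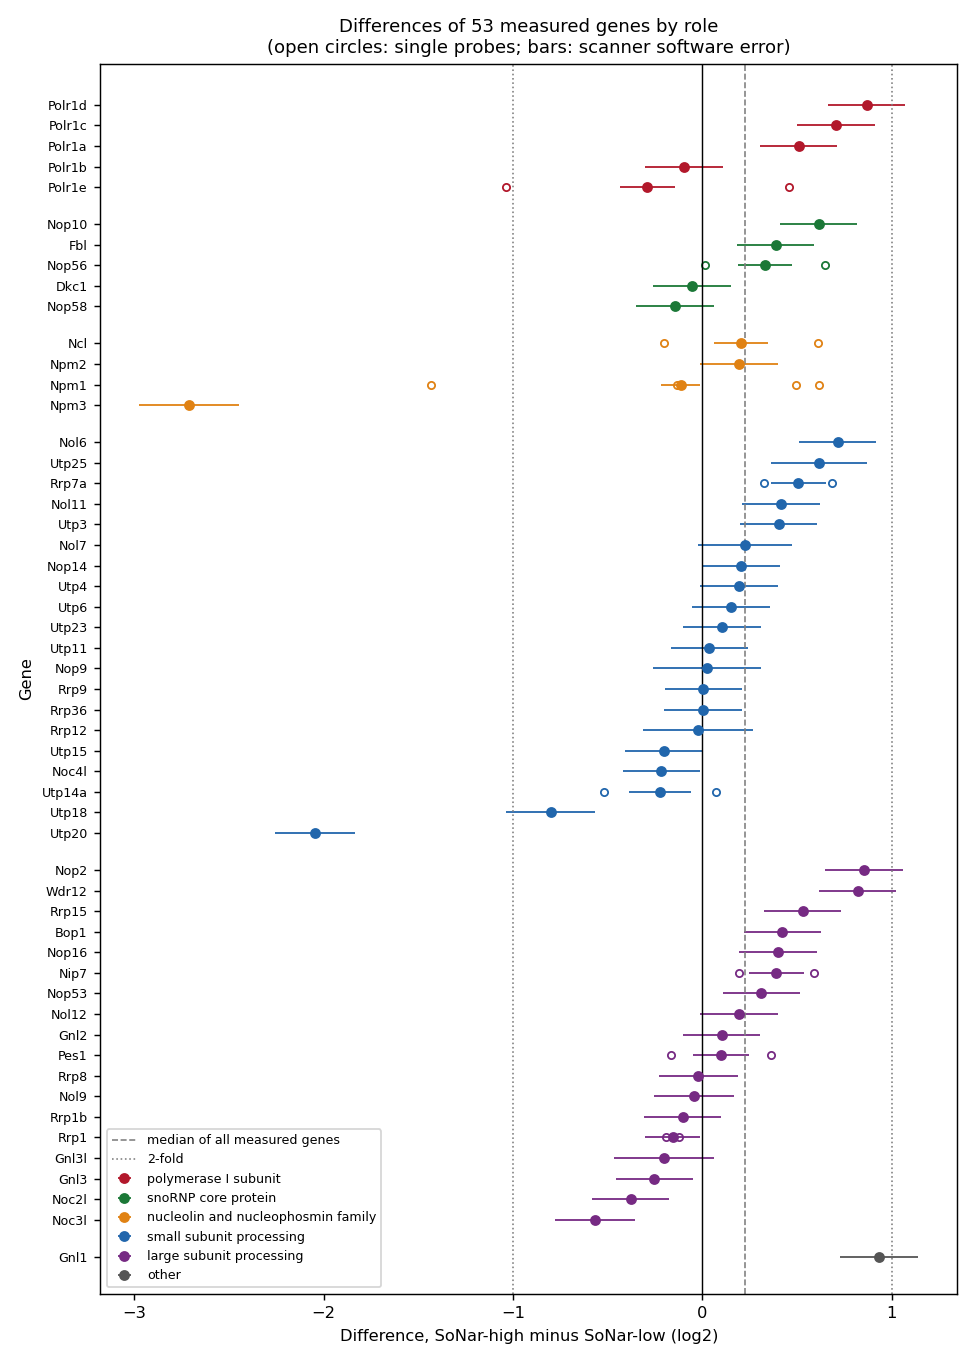
Difference of each of the 53 genes measured on both arrays (x axis, log2, SoNar-high minus SoNar-low; filled points, 1 array per population), grouped by role on the y axis. Bars are the scanner software's error of the spots and open circles the single probes of genes with several. The dashed line is the median gene at 0.22 and dotted lines are 2-fold. Of the filled points only Npm3 at -2.71 and Utp20 at -2.05 lie beyond 2-fold on the left. Open circles of Npm1 (-1.43) and Polr1e (-1.04) lie there too, and no point reaches 2-fold on the right.

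The error that the arrays themselves give is that of spots and probes. The scanner software's error, carried to a difference, had a median of 0.20 over the 53 genes. The probe of Polr1c, a subunit that polymerases I and III share, was printed as 10 spots, of which 9 on the SoNar-high array passed the outlier flags, with signals from 3692 to 4668 (median 4198) intensity units, and all 10 on the SoNar-low array, from 2619 to 3181 (median 2984). Before scaling, the spots of the 2 arrays did not overlap, and their SD was 0.12 and 0.07 on the log2 scale. Spot SDs of this size were usual: the 197 probes printed 10 times had medians of 0.13 (SoNar-high) and 0.07 (SoNar-low). How many of those probes separated in the same way was not counted, so the separation cannot be taken as particular to Polr1c. The error between spots covers neither animals nor sorts. Probes of 1 gene differed more: over the 9 genes with several measured probes the median SD between probes was 0.42, against 0.32 over 2394 such genes of the array. In 5 of these 9 genes (Ncl, Npm1, Pes1, Polr1e and Utp14a) the probes lay on both sides of 0, or 55.6%, where 46.2% of all genes with several probes did. The other 44 genes rest on 1 probe each.

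Of the 5 measured polymerase I subunit genes 3 stood above the median gene. Polr1d, a small subunit also shared with polymerase III, had a signal of 34373 units in SoNar-high and 21666 in SoNar-low cells, a difference of 0.87. Polr1c stood at 0.71. The largest catalytic subunit gene Polr1a gave 6075 and 4908 units, a difference of 0.51. Polr1b, which encodes the second-largest subunit that completes the active centre, lay below the median gene with 6158 and 7570 units (-0.10, software error 0.20). Its sign against 0 depends on the scaling, with 0.47 under median scaling. Subunits of one enzyme core thus lay on both sides of the median gene.

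Polr1e, which encodes a subunit particular to polymerase I, averaged -0.29 over 2 probes that disagreed. One gave 504 units in SoNar-high and 1191 in SoNar-low cells (-1.04), and the other 862 and 720 (0.46). Its direction therefore depends on the probe. A second Polr1d probe was left out because its spot was flagged as non-uniform on the SoNar-low array; it read 5105 and 7295 units (-0.32), and with it Polr1d averaged 0.27. The name table lists 3 further subunit genes of this polymerase under older symbols that the name rule misses, and these were added after seeing the data. Cd3eap (now Polr1g) stood at 0.52, Znrd1 (Polr1h) at 0.12 and Twistnb (Polr1f) at -0.05 with probes from -0.25 to 0.20. The median was 0.51 over the 5 subunit genes and 0.31 over all 8, or 0.29 and 0.09 relative to the median gene.

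The core proteins of the snoRNPs split in a similar way. Nop10, a small protein of the H/ACA particles that direct pseudouridylation, had 3793 units in SoNar-high and 2847 in SoNar-low cells (0.62). Fibrillarin (Fbl), the ribose methyltransferase of the C/D particles, gave 20041 and 17620 units (0.39). Dyskerin (Dkc1), the pseudouridine synthase that works in the same particle as Nop10, was at -0.05 with 4377 and 5228 units. The C/D scaffold proteins Nop56 and Nop58 are close relatives that form one complex. Nop56 averaged 0.33 over probes at 0.65 (21639 and 15856 units) and 0.01 (7169 and 8167 units), and Nop58 lay at -0.14 with 8884 and 11289 units. None of these 5 genes was called.

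Nucleolin and the nucleophosmin family held the largest difference of the set. Npm3, a nucleolar relative of nucleophosmin, gave 107 units in SoNar-high and 806 in SoNar-low cells, a difference of -2.71 with a software error of 0.26, or 6.54-fold lower. Both signals were well above background, and the 1 probe was the only one for the gene. The probe of Npm2, which is known from the oocyte, was level between the arrays with 550 and 553 units (0.19).

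Npm1, the abundant nucleolar chaperone that is often mutated in acute myeloid leukaemia, averaged -0.11 over 4 probes that did not agree. They read 38809 and 48910 units (-0.13), 13005 and 40366 (-1.43), 17119 and 12861 (0.61), and 47649 and 38883 (0.49), in the order SoNar-high and SoNar-low. The probe at -1.43 and that at 0.61 carry the same RefSeq transcript accession. Another Npm1 probe was left out for a non-uniformity flag on the SoNar-low array, where it read 16185 units against 247 on the SoNar-high array (-5.83). With that spot kept, Npm1 averaged -1.26 and was called lower. Nucleolin (Ncl), which binds the ribosomal RNA precursor, had one probe at 0.61 (68529 and 51600 units) and one at -0.20 (875 and 1157 units), and averaged 0.20.

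**Figure D2:**
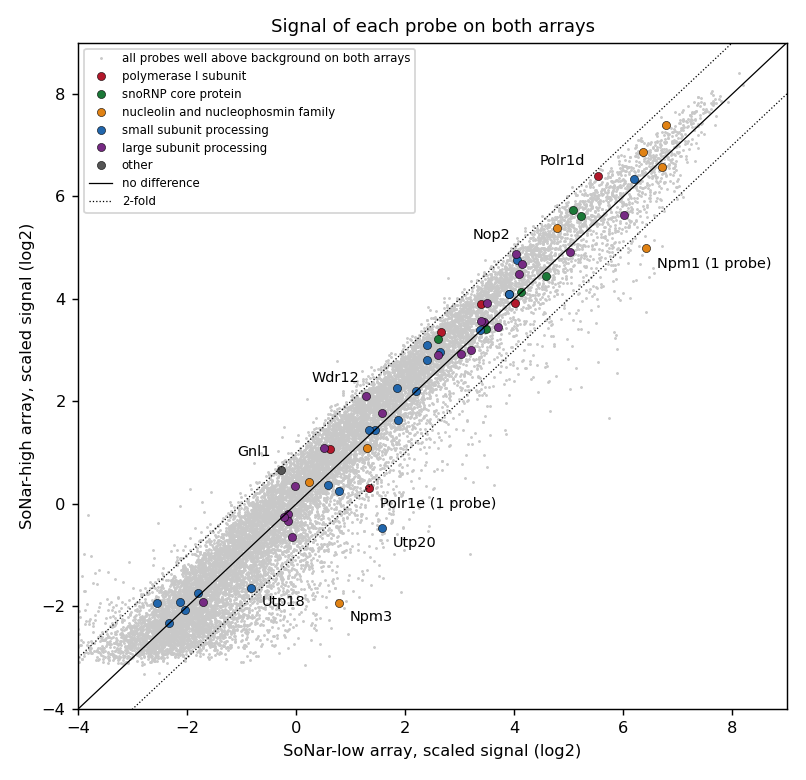
Scaled signal of each probe on the SoNar-low (x axis) and the SoNar-high array (y axis), both log2; grey points are all probes well above background on both arrays and coloured points the 64 probes of the ribosome biogenesis genes by role. Solid and dotted lines mark no difference and 2-fold; the probes of Npm3 and Utp20 and 1 probe each of Npm1 and Polr1e lie below the lower dotted line.

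Factors that process the small subunit's RNA numbered 20 measured genes, with a median of 0.07, or -0.15 relative to the median gene; 6 lay above the median gene and 14 below it. Utp20, a very large scaffold protein of the early precursor, stood apart with 293 units in SoNar-high and 1392 in SoNar-low cells (-2.05, 4.13-fold lower, software error 0.21). Utp18, a WD-repeat protein of the same processome, was next at -0.80 with 132 and 264 units. The remaining 18 lay between -0.22 and 0.71.

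At the upper end were Nol6 (11046 and 7742 units, 0.71), Utp25 (107 and 80 units, 0.62), Rrp7a (0.51, with probes at 0.33 and 0.69), Nol11 (0.42) and Utp3 (0.40). Nol6 and Rrp7a encode proteins of one module of the processome and lay on the same side of the median gene. Nol11 and Utp4 encode partners in the subcomplex that binds the precursor early and is linked to polymerase I transcription. Utp4, the cirhin gene, gave 6967 and 7002 units (0.19), and Utp15 of the same subcomplex 529 and 700 (-0.20). Nop14 (0.21) and its binding partner Noc4l (-0.22) were also apart from each other. Utp6 (0.15), Utp23 (0.11), Utp11 (0.04), Nop9 (0.02), Rrp9 (0.01), Rrp36 (0.00) and Rrp12 (-0.02) filled the middle, with Nol7 (0.23) level with the median gene. Utp14a, a helicase cofactor, had probes at 0.07 (123 and 134 units) and -0.52 (489 and 806 units).

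A further 2 of these factors, Utp14b and Nol10, were detected in the SoNar-low population alone. Utp14b, a retrogene copy of Utp14a, read 134 units there and 36.0 on the SoNar-high array, under that array's lowest signal well above background of 46.4 units. Against this floor it was at least 2.52-fold lower in SoNar-high cells. Nol10 read 74.8 and 41.7 units in the same order, at least 1.40-fold lower. With detection set at 3 SD of the negative controls, Utp14b, Nol10 and Nol3 were detected in both populations, and Nol4l alone remained SoNar-low only. With dim probes kept, Utp14b had a difference of -1.70. Detection in SoNar-low cells alone held for 4 of 58 genes of the set (Nol3, Nol4l, Nol10 and Utp14b) and for 26.4% of all genes with a probe, of which 5.02% had a bound of at least 2-fold. Detection in SoNar-high cells alone held for 0 of 58 and for 0.0534% of all genes. Nol3 read 31.3 units for SoNar-high and 35.7 for SoNar-low cells, and Nol4l 17.9 and 23.5, which lets no fold be given.

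To show the start-proximal sequence of genes at both ends of the range, the 250 bases before the gene's start are printed for Nop2 and Utp18, which hold the E-box CACGTG that MYC proteins bind, and for Npm3 and Utp20, the called genes, which do not hold it there. Sequences are RefSeq's for build GRCm38.p6, read 5′ to 3′ along the gene: Nop2 at chr6:125131633-125131882 (plus strand), Utp18 at chr11:93885767-93886016 (minus), Npm3 at chr19:45749566-45749815 (minus) and Utp20 at chr10:88826815-88827064 (minus). Capitals mark CACGTG and GGCGGG, the form of the GC box counted here, searched on both strands. Other forms of the GC box were not searched.
Nop2: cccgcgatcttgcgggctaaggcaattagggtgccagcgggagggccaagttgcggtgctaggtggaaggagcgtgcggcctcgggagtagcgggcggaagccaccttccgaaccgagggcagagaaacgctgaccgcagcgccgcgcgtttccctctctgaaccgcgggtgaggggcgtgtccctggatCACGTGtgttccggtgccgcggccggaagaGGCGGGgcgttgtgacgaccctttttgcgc
Utp18: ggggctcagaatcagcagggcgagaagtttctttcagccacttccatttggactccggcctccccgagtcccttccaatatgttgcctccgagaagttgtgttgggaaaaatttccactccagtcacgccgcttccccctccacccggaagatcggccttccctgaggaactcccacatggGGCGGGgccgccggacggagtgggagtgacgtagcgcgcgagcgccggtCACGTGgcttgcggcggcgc
Npm3: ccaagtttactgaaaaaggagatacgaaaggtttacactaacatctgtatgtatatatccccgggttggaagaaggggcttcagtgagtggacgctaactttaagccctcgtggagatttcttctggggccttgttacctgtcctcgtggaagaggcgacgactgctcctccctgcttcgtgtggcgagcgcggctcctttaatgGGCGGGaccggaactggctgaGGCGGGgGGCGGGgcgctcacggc
Utp20: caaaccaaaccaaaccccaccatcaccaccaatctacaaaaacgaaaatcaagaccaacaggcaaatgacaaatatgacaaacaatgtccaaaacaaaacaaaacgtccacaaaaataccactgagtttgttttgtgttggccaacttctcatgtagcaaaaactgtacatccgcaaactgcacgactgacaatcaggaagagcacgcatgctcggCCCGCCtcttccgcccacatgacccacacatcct
The E-box begins 60 bases before the start in Nop2 and 20 bases before it in Utp18. Npm3 held 3 GC boxes of this form and the others 1 each.

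Promoters were matched by symbol for 44 of the 58 genes. The E-box occurred in 6 of 44 (13.6%): Nol11, Nop2, Rrp7a, Utp14b, Utp18 and Utp25. Counted by gene, as for the set, it occurred in 6.86% of all 27025 genes with a promoter, and in 6.02% of the 32851 single promoters of this length. Of the 8481 genes measured on both arrays that had a promoter, 10.4% held it. The 44 genes include some not measured on both arrays, Utp14b among them. Of the 5 measured genes with it, 4 lay above 0 (Nop2 0.85, Utp25 0.62, Rrp7a 0.51 and Nol11 0.42) and Utp18 lay at -0.80, while Utp14b had only a bound, on the lower side. Above 0 also lay 33 of the 53 genes of the set and 66.9% of all genes. The 36 measured genes without the E-box had a median of 0.01 and spanned -2.71 to 0.94, a range that holds all 5 with it. The GC box, in the form GGCGGG only, occurred in 29 of 44 (65.9%). It occurred in 35.1% of all genes with a promoter, 32.5% of single promoters and 60.7% of the measured genes. Genes with and without a GC box covered overlapping ranges, from -2.71 to 0.94 and from -0.22 to 0.87.

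Factors of the large subunit numbered 18 measured genes with a median of 0.10, or -0.12 relative to the median gene; 7 lay above the median gene and 11 below it, and none was called. Nop2, a methyltransferase of the large ribosomal RNA and a classic proliferation antigen, was highest with 12079 units in SoNar-high and 7682 in SoNar-low cells (0.85). Noc3l was lowest with 262 and 447 units (-0.57).

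Wdr12, Bop1 and Pes1 encode the 3 proteins of the PeBoW complex, which is needed to process the large subunit's RNA. They differed among themselves. Wdr12 stood at 0.82 (1748 and 1138 units) and Bop1 at 0.42 (6221 and 5336 units). Pes1 stood at 0.10, with 1 probe at 0.37 (520 and 464 units) and 1 at -0.17 (326 and 422 units). Nip7, an early assembly factor, was at 0.39 with probes at 0.59 and 0.19. Rrp15 (0.53), Nop16 (0.40) and Nop53, an adaptor of the RNA exosome (0.31), lay above the median gene as well.

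The nucleolar GTPase genes were near or below it. Gnl2 lay at 0.10 (4791 and 5129 units), Gnl3l at -0.20 (109 and 144 units) and Gnl3, the nucleostemin gene, at -0.25 (4486 and 6149 units). Noc2l, which forms a complex with Noc3l, read 20275 and 30286 units (-0.38), so both partners lay below the median gene. Under median scaling Noc2l stood at 0.19. The paralogues Rrp1 (-0.16, both probes below 0) and Rrp1b (-0.10), the RNA kinase gene Nol9 (-0.04), the base methyltransferase gene Rrp8 (-0.02) and Nol12 (0.20) completed the group. The highest value of the whole set belonged to none of these roles: Gnl1, a GTPase gene with 644 and 387 units, stood at 0.94, short of the 2-fold threshold.

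Over the set, the differences varied with the brightness of the probes, which also depends on the probe itself. Of the 53 genes 28 lay in the brightest of 4 equal classes of all measured genes. There the median was 0.26 for them and 0.40 for all genes, and 0.989% of all genes were at least 2-fold lower. In the dimmest class 6 genes of the set had a median of 0.00, against -0.03 for all genes, and 7.68% of all genes were at least 2-fold lower. Npm3 lay in the second and Utp20 in the third class from the dim end, where 6.16% and 2.74% of all genes were at least 2-fold lower. In these 2 classes the set's median was -0.04 against 0.14 and 0.06 against 0.31 for all genes.

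Other genes of the pathway were taken from a list of 129 by role, of which 125 had a probe and 123 were measured on both arrays. Their median was 0.33, or 0.11 relative to the median gene, with 75 above and 48 below the median gene. Of the 123, 76 lay in the brightest class, where their median was 0.35 against 0.40 for all genes. In the third class from the dim end it was 0.32 against 0.31 (32 genes), and in the second -0.22 against 0.14 (14 genes). The dimmest class held 1 gene (0.72, against -0.03). Within classes of like brightness the list was thus not raised as a whole. The role medians below were not split by brightness. The WD-repeat processome gene Wdr75 was at least 2-fold higher (1.04, 4997 and 2788 units), 1 of 123 or 0.813% where 2.4% of all genes were. It stayed so in 5 of 11 alternatives and was below 2-fold in 6 (lowest 0.68). On the lower side 5 of 123 reached 2-fold, or 4.07%, where 4.39% of all genes were. These were Nmd3, the nuclear export adaptor of the large subunit (-1.67, 911 and 3326 units), the RNA helicase genes Ddx27 (-1.40, 3933 and 11970 units) and Ddx55 (-1.14, 396 and 1004 units), Tbl3, a WD-repeat processome gene (-1.07, 170 and 410 units), and Polr2h, a subunit shared by the nuclear polymerases (-1.03, 370 and 872 units). Nmd3 stayed at least 2-fold lower in 11 of 11 alternatives. Median scaling ended the call of the other 4 (-0.84 for Ddx27, -0.58 for Ddx55, -0.51 for Tbl3 and -0.47 for Polr2h), the series matrix also that of Polr2h and Tbl3, and quantile normalization and normexp that of Tbl3. All 6 genes rest on 1 probe each.

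By role, the listed snoRNP and modification genes had the highest median (0.47, with 9 of 12 above the median gene), from Snu13, which binds kink-turn RNA (0.76), to the assembly factor gene Shq1 (-0.12); Tcof1, the treacle gene, stood at 0.58. Small subunit genes had 0.36 with 21 of 34 above the median gene, with Fcf1 (0.91) next below Wdr75. Genes listed as initiation and termination genes of polymerase I, with the shared subunits, had 0.34 with 9 of 12 above. Among them were the upstream binding factor gene Ubtf (0.26, with probes at 0.99 and -0.47) and the initiation factor gene Rrn3 (0.27). This group ranged from Polr2f (0.65) to Polr2h. Its counts and median include Znrd2 (0.39), which is not an established factor of this role. The RNA exosome and its partners had 0.30 with 9 of 13 above, from Exosc4 (0.71) to Exosc1 (-0.37). Large subunit genes had 0.26 with 25 of 46 above, from Rbm28 (0.97) to Nmd3. The 6 genes of the 5S particle and nucleolar stress had 0.06, from Mdm2 (0.39) to Heatr3 (-0.97), with the ribosomal protein genes Rpl11 at -0.04 (probes from -0.81 to 0.35) and Rpl5 at -0.13.

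**Figure D3:**
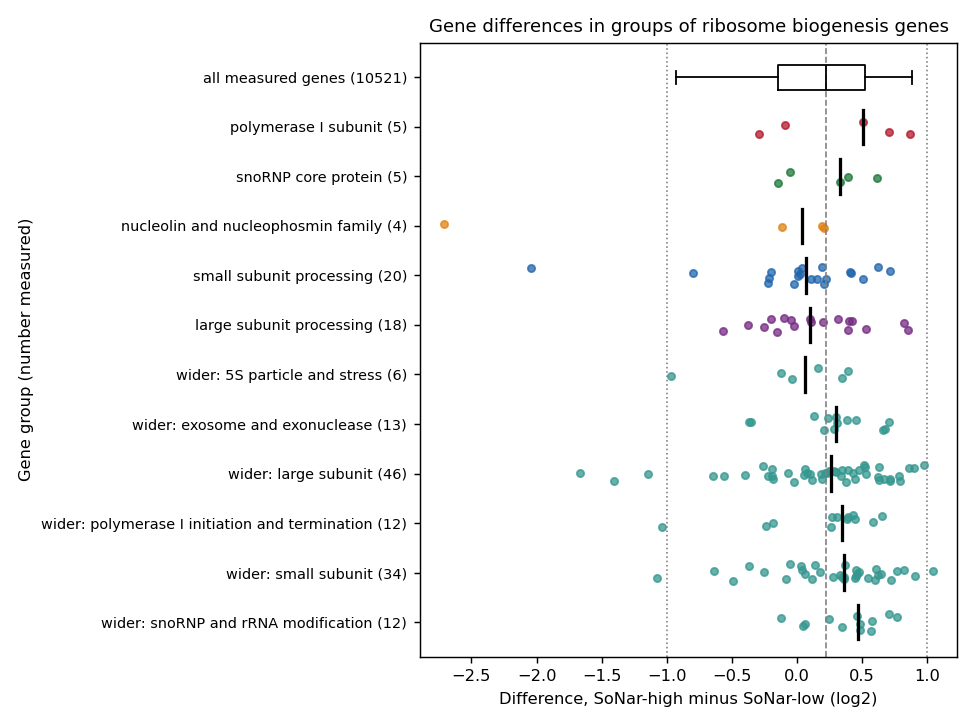
Differences of single genes (points; x axis, log2, SoNar-high minus SoNar-low) in the role groups of the set and of the wider list (y axis, number measured in brackets), with the group median as a bar. The box shows the quartiles and the 5 to 95 percentile range of all 10521 genes, the dashed line their median of 0.22 and the dotted lines 2-fold; all groups overlap the box, and Npm3 is furthest out.

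Group medians relative to the median gene do not change when an array is rescaled, but the other 8 alternatives moved them. The median of the polymerase I subunit genes stayed above the median gene in 8 of 8, from 0.04 in the series matrix to 0.46 with dim probes kept. Polr1b itself lay below the median gene in 11 of 11 alternatives. The median of the set's small subunit genes stayed below the median gene in 8 of 8, from -0.26 to -0.02. That of the 34 small subunit genes of the wider list lay at 0.14 relative to the median gene, and was not followed through the alternatives. The median of the set's large subunit genes was below the median gene in 7 of 8 and that of the whole set in 7 of 8. Both medians lay at 0.05 with dim probes kept. The median of the snoRNP core genes was above it in 4 of 8 and lay at -0.12 under normexp. The wider list was above it in 4 of 8 and lay at -0.08 under quantile normalization and in the series matrix, so its position relative to the median gene has no settled sign. Utp20 was at least 2-fold lower in 11 of 11 alternatives, from -2.34 to -1.48, and Npm3 in the 10 that gave it a value, from -3.00 to -2.14; the stricter filter on dim probes left Npm3 out. Of the 53 genes 33 kept their side of the median gene in each alternative that gave them a value, 12 above it and 21 below it.

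**Figure D4:**
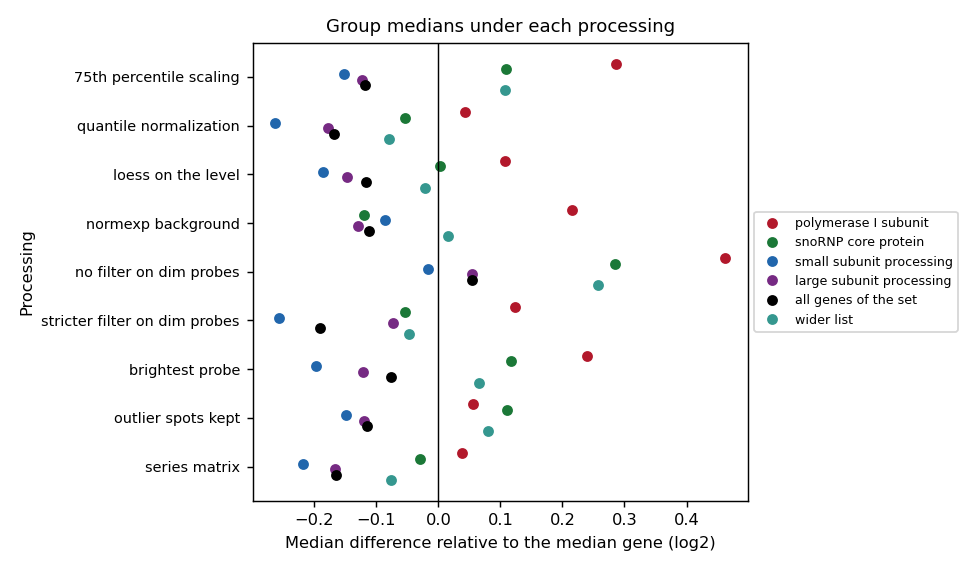
Median difference of each group relative to the median gene (x axis, log2) under the processing of the report and 8 alternatives (y axis); alternatives that only shift an array by a constant are left out because they do not move these values. The median of the polymerase I subunit genes lies right of 0 and that of the set's small subunit genes left of 0 on every line. Medians of the wider list and of the snoRNP core genes lie on both sides.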

How the data were processed

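Total RNA of the sorted SoNar-high and SoNar-low populations was labelled with Cy3 and hybridised to 1 array each. The deposited scanner files hold intensity values, background-subtracted but not scaled between arrays, from Agilent Feature Extraction 11.0.1.1 per the file headers (version 9.1 per the submitters' processing notes). The authors' series matrix holds log2 values as deposited; their rank order matched the scanner signals (Spearman's rho 1.000 and 0.9998 over 39085 probes, as a description) and their direction was the same. Both columns had a median of 5.90, and their centring is not given in the sources used here.

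Control spots and spots flagged as non-uniform or population outliers were left out, replicate spots entered as their log2 mean, and each array's 75th percentile over probes was subtracted. RefSeq accessions, without versions, gave current symbols to 27115 of 39085 probes through a gene table of assembly GRCm38.p6, used for names only. Differences were averaged over those probes of a gene that exceeded background on each array, by the scanner software's call. Genes seen on 1 array got a bound against the other array's lowest signal well above background. The set, its roles and the wider list were chosen with earlier results of these data known. Values are given for called genes, the highest and lowest of each role, genes with discordant probes, bounds, and a fixed list of core factors. Alternatives were median scaling, scaling to probes well above background on both arrays, centring on the median gene, quantile normalization, loess (span 0.3), normexp (offset 50), no filter or a stricter filter on dim probes (the brighter 50%), another background call, the brightest probe, outlier spots kept, the series matrix, sets of other members, and thresholds of 1.5-fold and 3-fold. The number of arrays limits the precision. The gene step was tested on simulated data. Software was limma 3.58.1 in R 4.3.3, and pandas 2.3.3, numpy 2.4.6, scipy 1.17.1, matplotlib 3.10.9 and statsmodels 0.14.6 in Python 3.11.15.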

Additional observations from a re-analysis of the deposited data

How the results depend on the processing

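The median of the ribosome biogenesis genes relative to the median gene was -0.12. It stayed below 0 in 13 of 14 alternatives, 3 of which cannot move it (lowest -0.19), and lay at 0.054 over 58 genes with dim probes kept; adding the 3 older-symbol polymerase genes, a choice made after seeing the data, gave -0.11. The count at least 2-fold higher was 0, where 2.4% of all genes were, and became 11 under median scaling (20.8%, against 32.1% of all genes). It was 1 (1.89%) under quantile normalization and in the series matrix, Utp25 in both, where 3.31% and 4.09% of all genes were. At 1.5-fold it was 8 (15.1%, against 20.4% of all genes). The count lower was 2 (3.77%, against 4.39% of all genes). It became 1 with the stricter filter on dim probes, which kept 39 of the genes (2.56%, against 1.94% of all genes). It was 3 under scaling to the probes well above background on both arrays and centring (Utp18 added; 8.11% and 7.05% of all genes), with dim probes kept (Utp14b; 12.3%), with outlier spots kept (Npm1; 4.68%) and at 1.5-fold (Utp18; 10.2%). The 4 genes detected in SoNar-low cells alone became 1 (Nol4l) when detection meant 3 SD of the negative controls.

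For the wider list, the count higher was 1, and became 45 under median scaling (36.6%, against 32.1% of all genes) and 26 at 1.5-fold (21.1%, against 20.4%). It became 0 under centring on the median gene (against 0.665% of all genes), loess (1.12%), normexp (0.684%) and the 3-fold threshold (0.295%). Scaling to the probes well above background on both arrays likewise gave 0 (0.58%). Quantile normalization and the series matrix gave 0 where larger shares of all genes, 3.31% and 4.09%, were at least 2-fold higher. The count lower was 5, and became 1 under median scaling (0.813%, against 1.33% of all genes), 3 with the stricter filter (2.68%, against 1.94%), 8 with outlier spots kept (6.30%, against 4.68%), 8 at 1.5-fold (6.5%, against 10.2%) and 1 at 3-fold (0.813%, against 1.26%). Its median relative to the median gene, 0.11, became -0.079 under quantile normalization, -0.021 under loess, 0.26 with dim probes kept, -0.047 with the stricter filter and -0.076 in the series matrix. The cause of these moves was not tested, beyond that a constant shift of an array moves every gene alike and that stricter filters and thresholds keep fewer genes. Neither called gene changed sign in any alternative run. No paired analysis was possible because each population has 1 array.

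With 1 array per population nothing here measures the spread between animals or sorts, and 44 of the 53 genes rest on 1 probe. Dim probes are limited by the SoNar-high array, whose lowest signal well above background was 46.4 units, against 19.7 on the SoNar-low array.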
